A study of Mus musculus with 16 samples.

Results

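Genes of the podocyte and of the glomerular filter were examined in kidneys of 9 Aqp11-/- and 7 Aqp11+/+ mouse pups aged 7 days. The members are 33 genes named for podocytes, their slit diaphragm, their cytoskeleton and nuclear regulators, and the basement membrane and integrins on which they stand. They were found on the array by annotated gene symbol among 18194 named genes, and each gene was read from its brightest probe set. A probe set named for a member was found for 32 of the 33. Expression of Magi2, which encodes a scaffold protein of the slit diaphragm, was not analysed here.

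Both genotypes were littermates from 5 heterozygous matings. The knockout line was made in 129/SvEvBrd and back-crossed to C57/BL6, and the labels give the strain as C57BL/6J. The deletion is present in the whole animal, so every cell type of the kidney lacks the gene. Aqp11 encodes an intracellular aquaporin, and the study asked what its knockout does to the kidney. The Aqp11-/- group held 5 males and 4 females and the Aqp11+/+ group 3 males and 4 females, with 1 kidney sample and 1 array per pup.

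The glomerular filter has 3 layers, a fenestrated endothelium, a basement membrane and the foot processes of podocytes. Nephrin, the product of Nphs1, and the related protein Neph1, the product of Kirrel, span the gap between neighbouring foot processes and form the slit diaphragm, which is tied to actin inside the cell. In the mature basement membrane the type IV collagen chains of Col4a3, Col4a4 and Col4a5 form a network that podocytes secrete, and mutations in these chains cause Alport syndrome in humans. In mice new glomeruli still form after birth, so a kidney of this age holds immature and mature podocytes.

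The deletion was visible on every array by the brightest Aqp11 probe set, whose values come next. A dimmer Aqp11 probe set overlapped between genotypes, reaching 5.25 in knockout and starting at 4.46 in wild type. Another did not overlap, with 2.78 to 3.06 in knockout and 3.55 to 4.85 in wild type. By the brightest probe set, Aqp11 had a log2 signal of 2.78 to 3.69 (median 2.78) on knockout arrays, where 7 of 9 were at the floor applied to low signals. On wild-type arrays it had 7.72 to 8.11 (median 7.78). The trimmed mean signal of an array was 169 ± 44.9 (SD, n = 9) in knockout and 165 ± 33.4 (SD, n = 7) in wild type, and the signals were quantile normalized before log2 was taken. All levels below are log2 signals after that step, and all changes are log2 differences, knockout minus wild type. A gene was called higher or lower when its limma adjusted p, taken over all 12500 genes tested, was under 0.05. Of the 32 members, 30 lay above the 40th percentile of signal on all 16 arrays. Trpc6, a cation channel of the slit diaphragm, lay above it on 0 arrays, with signals of 2.78 to 3.77 (median 3.35) in knockout and 2.78 to 4.05 (median 3.45) in wild type, and was not tested. The other 31 members passed the filter.

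Podocyte and filter genes shifted by modest amounts, and more of them downward than upward. Of the 31 tested members 9 were lower and 2 were higher in knockout, or 29% and 6.45%, beside 8.35% lower and 9.37% higher (17.7% in either direction) among all genes tested. With the signals as deposited, without quantile normalization, 0 members were lower and 0 higher, beside 154 and 284 of all genes. The members that fell were Nphs1, Plce1, Ptpro, Clic5, Thsd7a, Ddn, Cdkn1c, Col4a3 and Col4a4, and those that rose were Cd2ap and Itga3. Over all 31 tested members the median log2 change was -0.18, with a range from -0.53 to 0.37, against a median of 0.00314 over all genes tested. For 4 members, Nphs1, Plce1, Clic5 and Col4a3, every knockout array lay below every wild-type array, or 12.9%, beside 2.43% of all genes. Of the opposite pattern, each knockout array higher than each wild-type one, there were 0 members, beside 2.91% of all genes. In RNA of whole kidneys, fewer podocytes, less RNA per podocyte and changes in other cells that express a member cannot be told apart.

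**Figure D1:**
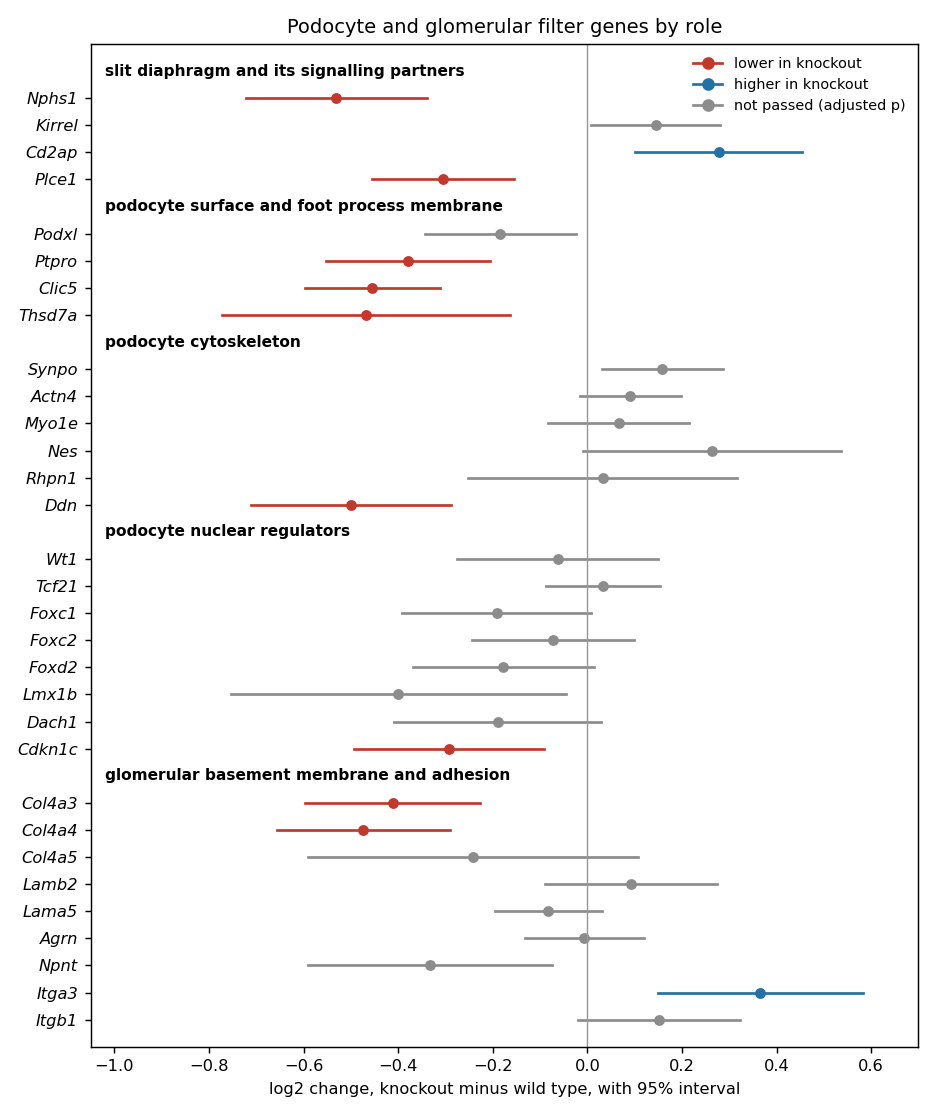
Log2 change of each tested member, knockout minus wild type, with its 95% interval, grouped by role from top to bottom. Red marks the 9 members lower in knockout, blue the 2 higher and grey the 20 that did not pass; lower members stand in each group, and the 3 members with the largest falls are Nphs1, Ddn and Col4a4.

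Within the slit diaphragm and its partners, the members went different ways: of 4 tested, 2 were lower and 1 higher. Nphs1 fell most of all members tested. Its signal was 7.21 to 7.92 (median 7.52) on knockout arrays and 7.92 to 8.40 (median 8.04) on wild-type arrays. The highest knockout array, 5-2, lay just below the lowest wild-type array, so the groups did not overlap. The log2 change was -0.53 (SE 0.0918, limma adjusted p = 0.000284), or 1.44-fold lower. Plce1 encodes a phospholipase C of podocytes whose mutation causes nephrotic syndrome in humans. It had 7.04 to 7.37 (median 7.35) in knockout and 7.39 to 7.78 (median 7.61) in wild type, and the lowest wild-type array was 1-1. The change was -0.30 (SE 0.0718, limma adjusted p = 0.0047), again without overlap.

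Cd2ap, an adaptor that links nephrin to actin and is also made by tubule epithelium, went the other way. Signals were 9.94 to 10.63 (median 10.15) in knockout and 9.64 to 10.05 (median 9.94) in wild type. On 9 of 9 knockout arrays Cd2ap exceeded its wild-type mean, and on 7 of them every wild-type array. The change was 0.28 (SE 0.0848, limma adjusted p = 0.0263). This call was lost without wild-type array 2-1 (limma adjusted p = 0.0568) or 5-1 (0.0621), and without the filter on low signals (0.0508). Kirrel had 7.80 to 8.20 (median 8.05) in knockout and 7.81 to 7.98 (median 7.92) in wild type, a change of 0.14 that did not pass (limma adjusted p = 0.144). On 7 of 9 knockout arrays Kirrel lay above every wild-type array, and on array 3-2 below every one.

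Promoter windows are shown for the lower members Nphs1 and Plce1, whose genotypes did not overlap, and for Col4a4, which was added. Only windows that held a motif match are shown. Clic5 met the same rule, but its window held 0 matches, and no window was available for Col4a3. Ptpro and Thsd7a, also lower, had windows with matches that are not shown, since their genotypes overlapped. Each window shown runs from 250 bases before to 50 after the gene's start, in RefSeq's GRCm38.p6, with motif matches in capitals. The motifs searched on both strands were GNGTGGGNG (Wt1 type), CANNTG (the E-box, Tcf21 type), TAATTA (homeobox, Lmx1b type) and TGTTTNC (forkhead). No matches overlapped in these windows. The Nphs1 window lies at chr7:30459808-30460107 on the plus strand, the Plce1 window at chr19:38523947-38524246 on the plus strand and the Col4a4 window at chr1:82586800-82587099 on the minus strand.
Nphs1: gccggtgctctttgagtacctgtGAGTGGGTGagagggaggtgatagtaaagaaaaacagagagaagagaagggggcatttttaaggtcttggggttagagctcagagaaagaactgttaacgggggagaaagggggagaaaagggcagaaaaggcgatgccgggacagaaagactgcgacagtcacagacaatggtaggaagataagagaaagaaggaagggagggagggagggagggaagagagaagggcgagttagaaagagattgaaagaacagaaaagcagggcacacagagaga
Plce1: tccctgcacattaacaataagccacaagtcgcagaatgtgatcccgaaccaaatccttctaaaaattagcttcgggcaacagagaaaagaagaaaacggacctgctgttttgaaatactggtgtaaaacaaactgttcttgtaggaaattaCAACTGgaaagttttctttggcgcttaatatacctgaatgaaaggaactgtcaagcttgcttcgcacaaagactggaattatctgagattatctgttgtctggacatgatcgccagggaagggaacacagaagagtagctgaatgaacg
Col4a4: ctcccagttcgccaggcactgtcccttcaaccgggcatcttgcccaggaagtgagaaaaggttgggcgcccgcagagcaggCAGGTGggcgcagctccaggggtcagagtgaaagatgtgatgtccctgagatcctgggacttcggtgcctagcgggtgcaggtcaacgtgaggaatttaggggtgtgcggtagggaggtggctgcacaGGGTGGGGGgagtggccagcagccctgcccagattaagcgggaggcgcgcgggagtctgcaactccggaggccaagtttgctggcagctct
Nphs1 held 1 Wt1 type match at position -227 from the start, and Col4a4 held 1 at -41 beside an E-box at -169. Plce1 held an E-box at -99.

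Of 29 promoter windows of 25 listed members, among them Magi2, 7 (24.1%) held the Wt1 type motif, against 14.3% of all 32851 windows in the table. The E-box was in 58.6% of member windows and 72.3% of all, the forkhead motif in 10.3% and 20.5%, and the homeobox motif in 3.45% and 5.29%. A match is a string of letters and not a measured binding site.

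Surface and foot process membrane genes fell for 3 of 4 members. Clic5, a chloride intracellular channel protein that joins podocalyxin and ezrin in foot processes, had 8.18 to 8.54 (median 8.31) in knockout and 8.65 to 8.95 (median 8.81) in wild type. No array of one genotype reached into the range of the other. The change of -0.45 (SE 0.0684, limma adjusted p = 6.73e-05) had the smallest p of all members, and amounts to 1.37-fold. Ptpro encodes GLEPP1, a receptor tyrosine phosphatase of the podocyte's apical membrane. It had 8.09 to 8.68 (median 8.34) in knockout and 8.62 to 8.93 (median 8.81) in wild type, with a change of -0.38 (SE 0.0833, limma adjusted p = 0.00266). Knockout arrays 2-3 and 2-4 lay inside the wild-type range and the other 7 below it.

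Thsd7a, a podocyte membrane protein that is an autoantigen in membranous nephropathy, fell with a wide spread. It had 7.02 to 7.91 (median 7.69) in knockout and 7.58 to 8.34 (median 8.001) in wild type, a change of -0.47 (SE 0.146, limma adjusted p = 0.0299). All 9 knockout arrays lay below the wild-type mean, but only 3 of them, 2-4, 3-4 and 5-2, below every wild-type array. These 3 arrays and wild-type array 5-1, the lowest of its genotype, all belong to the 8 arrays of lower overall brightness. Within the 8 brighter arrays the change was -0.14 (limma adjusted p = 0.419), and within the 8 dimmer arrays -0.75 (limma adjusted p = 0.0413). The highest wild-type arrays, 4-2 (8.34) and 4-1 (8.24), are dimmer arrays too. Knockout arrays 2-4, 3-4 and 5-2 are also all from males, and the change was -0.80 in males and -0.12 in females. The parts of brightness and of sex in this result were not tested further. The Thsd7a call was also lost without any 1 of 7 arrays: wild-type 1-1 (just above the threshold), 3-1, 4-1 or 4-2 (limma adjusted p = 0.0660 to 0.0710) and knockout 2-4, 3-4 or 5-2 (0.0516 to 0.0564). Podxl, which encodes podocalyxin, the charged sialomucin that coats foot processes, had 10.56 to 11.05 (median 10.80) in knockout and 10.84 to 11.18 (median 10.94) in wild type. Its change of -0.18 did not pass (SE 0.0767, limma adjusted p = 0.110), although 5 of 9 knockout arrays lay below every wild-type array.

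**Figure D2:**
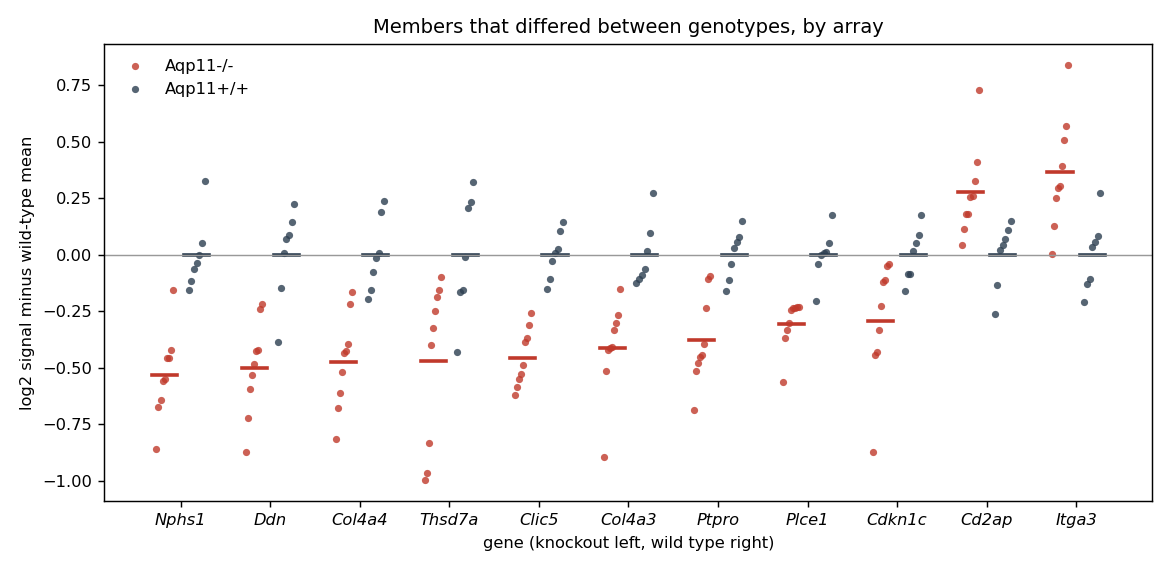
Log2 signal of the 11 members that differed, each array as a point relative to the gene's wild-type mean, with knockout (red) left of wild type (dark) and bars at the group means. For the 9 lower genes all 9 knockout points lie below the wild-type mean, and for Nphs1, Plce1, Clic5 and Col4a3 the groups do not overlap.

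Of the 6 cytoskeletal members only Ddn passed. Ddn encodes dendrin, a protein of the inner face of the slit diaphragm that can move to the nucleus. It had 7.40 to 8.05 (median 7.79) in knockout and 7.88 to 8.49 (median 8.34) in wild type, a change of -0.50 (SE 0.101, limma adjusted p = 0.00132). The groups overlapped through wild-type array 1-1 (7.88) and knockout arrays 2-3 and 4-4, while the other 7 knockout arrays lay below all wild-type arrays.

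The actin-associated members Synpo and Actn4 did not pass. Synpo, which encodes the actin-associated protein synaptopodin of differentiated podocytes, had 8.90 to 9.12 (median 9.07) in knockout and 8.69 to 9.02 (median 8.93) in wild type. Its change was 0.16 (SE 0.061, limma adjusted p = 0.0812), and it exceeded the wild-type mean on 9 of 9 knockout arrays. Actn4, an actin crosslinker mutated in a familial glomerulosclerosis, had 10.74 to 11.03 (median 10.91) in knockout and 10.70 to 10.90 (median 10.84) in wild type, a change of 0.09 (SE 0.0511, limma adjusted p = 0.259). For Actn4 the 95% interval of the change ran from -0.02 to 0.20. The remaining members had changes of 0.26 for the intermediate filament gene Nes (limma adjusted p = 0.192), 0.07 for the myosin gene Myo1e (0.607) and 0.03 for Rhpn1 (0.909).

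Of 8 nuclear regulators of podocytes 1 was lower, and the others did not pass. Wt1, the zinc finger factor needed for podocyte differentiation, had 7.60 to 8.24 (median 7.95) in knockout and 7.70 to 8.17 (median 8.02) in wild type. The change was -0.06 with a 95% interval from -0.28 to 0.15 (SE 0.102, limma adjusted p = 0.752), and the knockout range enclosed the wild-type range. Tcf21, a basic helix-loop-helix factor of podocytes and stroma, changed by 0.03 (interval -0.09 to 0.15, limma adjusted p = 0.774), and the forkhead gene Foxc2 by -0.07 (interval -0.24 to 0.10, limma adjusted p = 0.622).

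The other nuclear regulators had negative changes that did not pass. They were Lmx1b (-0.40, limma adjusted p = 0.118), a LIM homeobox factor mutated in nail-patella syndrome, Foxc1 (-0.19, 0.194), Dach1 (-0.19, 0.249) and Foxd2 (-0.18, 0.2135). Lmx1b was the dimmest of these on the array and was above the 40th percentile on 15 of 16 arrays. For Foxc1 and Foxd2, 7 of 9 knockout arrays lay below every wild-type array, and knockout array 2-4 had the highest Foxc1 signal of all arrays, 8.96.

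Cdkn1c, which encodes the cell cycle inhibitor p57 that marks podocytes leaving the cell cycle and is also made by other kidney cells, was lower. It had 10.84 to 11.68 (median 11.49) in knockout and 11.56 to 11.89 (median 11.73) in wild type, a change of -0.29 (SE 0.0964, limma adjusted p = 0.0405). Knockout array 1-2 stood apart at 10.84, and 5 of 9 knockout arrays lay below every wild-type array. This call did not depend on array 1-2, since the adjusted p fell within the threshold without it, but it was lost without any 1 of 9 other arrays. These were wild-type 1-1, 2-1, 3-1, 4-1, 4-2 or 5-1 (limma adjusted p = 0.0512 to 0.0819) and knockout 2-3, 3-3 or 4-4 (0.0646 to 0.0696).

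In the glomerular basement membrane, 2 of 3 collagen chains, Col4a3 and Col4a4, fell, while Col4a5 by its brightest probe set and the laminin and agrin genes did not pass. Col4a3 had 8.51 to 9.25 (median 9.00) in knockout and 9.28 to 9.68 (median 9.34) in wild type. The groups did not overlap, and the change was -0.41 (SE 0.0885, limma adjusted p = 0.00219). Col4a4 had 10.10 to 10.74 (median 10.47) in knockout and 10.71 to 11.15 (median 10.90) in wild type, and only knockout array 3-2 reached into the wild-type range. Its change was -0.47 (SE 0.0879, limma adjusted p = 0.000584), or 1.39-fold lower.

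Col4a3 and Col4a4 are neighbours on chromosome 1 with 0 protein-coding genes between them, and are known to be transcribed in opposite directions from a shared promoter region. Knockout array 2-3 was the lowest array for both genes, at 8.51 for Col4a3 and 10.10 for Col4a4, and wild-type array 1-1 was the highest for both. Col4a5, on the X chromosome, gave a different result with each of its probe sets. The brightest had 9.28 to 10.44 (median 10.19) in knockout and 9.68 to 10.88 (median 10.44) in wild type, a change of -0.24 that did not pass (SE 0.168, limma adjusted p = 0.380). The other probe set had 8.89 to 9.14 (median 9.01) in knockout and 9.30 to 9.49 (median 9.38) in wild type, with no overlap. Its change of -0.37 passed among all 27377 probe sets tested (SE 0.0531, limma adjusted p = 6.73e-05), of which 5.46% were lower and 6.21% higher.

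The noncollagenous members of the basement membrane gave small changes. Lamb2, the laminin chain that replaces Lamb1 as the membrane matures, had 7.40 to 7.9999 (median 7.63) in knockout and 7.48 to 7.82 (median 7.59) in wild type. The change was 0.09 with a 95% interval from -0.09 to 0.27 (SE 0.0874, limma adjusted p = 0.5505). Lama5, its partner in the laminin trimer, changed by -0.08 (limma adjusted p = 0.345), and the proteoglycan gene Agrn by -0.01 with an interval from -0.13 to 0.12 (limma adjusted p = 0.961). Npnt encodes nephronectin, an integrin ligand secreted by podocytes and by tubule epithelium. Its brightest probe set changed by -0.33 and did not pass (limma adjusted p = 0.0706), with 8 of 9 knockout arrays below the wild-type mean. The call for Npnt changed with the setting, and it passed as lower in 9 of 36 alternatives. With all arrays it passed for the mean of all probe sets (-0.29, limma adjusted p = 0.00174) and with median centring of the arrays (-0.36, 0.0292). Array quality weights (-0.35, limma adjusted p = 0.0278) and the first sample number as a replicate block (-0.36, 0.0293), also with sex (-0.35, 0.0368), gave the same call. It passed too in males alone (-0.60, limma adjusted p = 0.0152). So it did without wild-type array 2-1 (limma adjusted p = 0.0341) or 5-1 (0.0138) or knockout array 3-3 (0.0417).

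Of the integrin chains, 1 of 2 was higher. Itga3 and Itgb1 encode the chains of the laminin receptor that anchors podocytes, and both are also made by tubule cells. Itga3 had 7.85 to 8.68 (median 8.15) in knockout and 7.63 to 8.12 (median 7.88) in wild type, a change of 0.37 (SE 0.104, limma adjusted p = 0.0171). Itga3 exceeded its wild-type mean on 9 of 9 knockout arrays, and on 6 it exceeded every wild-type array. The brightest probe set of Itgb1 had 10.88 to 11.38 (median 11.18) in knockout and 10.84 to 11.29 (median 10.92) in wild type, a change of 0.15 that did not pass (limma adjusted p = 0.234). Another Itgb1 probe set had 10.52 to 10.80 (median 10.63) in knockout and 10.28 to 10.52 (median 10.45) in wild type, and passed as higher (0.22, limma adjusted p = 0.00584).

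Where a member had further probe sets, these mostly repeated its direction. Among the 17 members with another tested probe set, 28 such probe sets were tested over all probe sets. Of 8 belonging to lower members, 6 were also lower, and of 4 belonging to higher members, 2 were also higher. None was called in the opposite direction. All 3 probe sets of Col4a4 and both of Col4a3 and Ptpro were lower, and 3 of 4 of Clic5. In the fit over all probe sets the single probe set of Cdkn1c did not pass (limma adjusted p = 0.0557). Of 16 further probe sets of members that did not pass by the brightest, 4 were lower, 1 of Col4a5 and 3 of Npnt, and 1 was higher, of Itgb1.

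**Figure D3:**
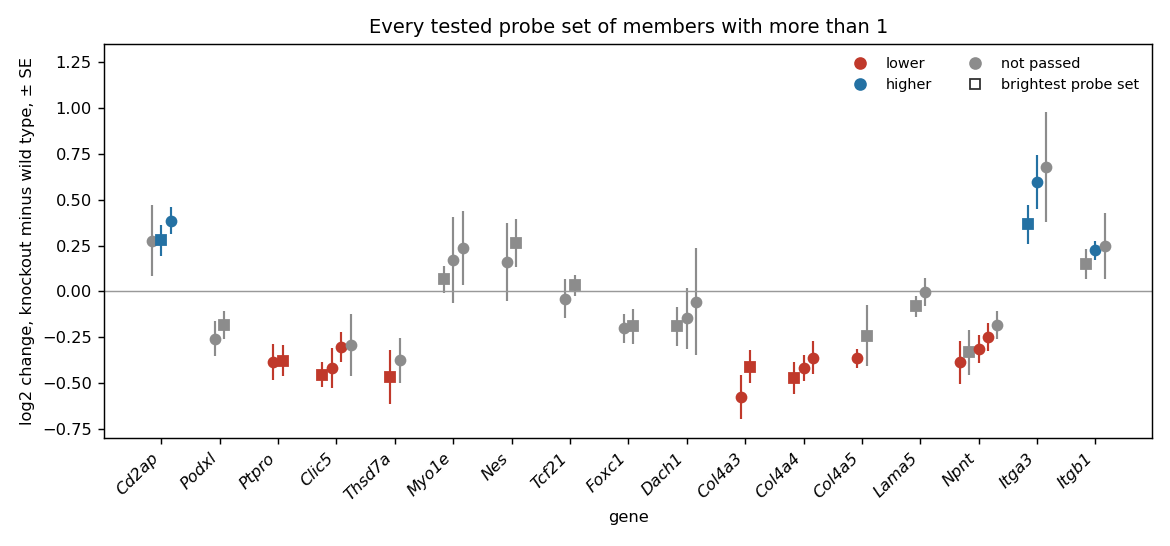
Log2 change, knockout minus wild type, with SE for every tested probe set of the 17 members that have more than 1, coloured by the call in the fit over all 27377 probe sets; squares are the brightest probe set of each gene. Both probe sets of Col4a3 and all 3 of Col4a4 lie below 0 and are called lower, as is the dimmer probe set of Col4a5.

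Further podocyte genes outside the 33 members were read for comparison. Of 25 tested, 4 were lower and 2 higher, with a median log2 change of -0.07. Among all genes tested 8.35% were lower and 9.37% higher. The lower genes were Ildr2 (-0.47, limma adjusted p = 0.00193), Bmp7 (-0.44, limma adjusted p = 0.00492), Vegfa (-0.39) and Mertk (-0.23). Bmp7 and Vegfa encode secreted growth factors, and podocyte Vegfa maintains the glomerular endothelium. The higher genes were the membrane-cytoskeleton linker Msn (0.39, limma adjusted p = 6.75e-05) and the formin gene Inf2 (0.49, limma adjusted p = 0.0091), both also expressed outside podocytes. In RNA of whole kidneys neither the lower nor the higher genes can be assigned to podocytes alone. Among 12 other basement membrane genes 3 were higher, Col4a2 (0.17), Col18a1 (0.24) and Sparc (0.16), and 1 was lower, Col4a6 (-0.42, limma adjusted p = 0.0113). Col4a6 adjoins Col4a5 on the X chromosome with 0 protein-coding genes between.

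Genes of other cell types differed in the same kidneys, where 8.35% of all genes tested were lower and 9.37% higher. Endothelial genes were lower for 5 of 19 tested and higher for 0, with a median of -0.13. Emcn, the sialomucin endomucin, had 10.30 to 10.84 (median 10.63) in knockout and 10.93 to 11.03 (median 10.96) in wild type (-0.37, limma adjusted p = 0.000249). Ehd3, an endocytic protein of the glomerular endothelium, had 8.46 to 8.78 (median 8.58) in knockout and 8.83 to 9.14 (median 9.01) in wild type (-0.38, limma adjusted p = 0.000336). Neither gene's groups overlapped, and Sox17 (-0.55), Pecam1 (-0.21) and Tek (-0.31) were also lower. Mesangial and pericyte genes were higher for 3 of 11, Tagln (0.72), Acta2 (0.27) and Rgs5 (0.29), and lower for 1, the mesangial integrin gene Itga8 (-0.38, limma adjusted p = 0.00195). The list of parietal epithelium and nephron progenitors had Cldn1 (0.75) and Wnt4 (0.35) higher and Jag1 (-0.31) lower among 8 tested.

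Tubule and immune genes had median changes of -0.81 and 1.602. All 20 macrophage genes were higher, with a summed linear signal of 7801 to 13199 on knockout arrays and 2841 to 5005 on wild-type arrays, led by Cd74, C1qa, Fcgr3 and H2-Aa. Proximal tubule genes were lower for 16 of 17, Slc34a3, Slc22a8, Slc5a2 and Dpep1 with the smallest p, and their summed signal was 18495 to 30906 in knockout and 41122 to 51291 in wild type. Injury genes were higher for 8 of 9, with Havcr1, Timp1, Lcn2 and Fgg first, and matrix genes for 8 of 11, with Tgfbi, Loxl1, Fbln1 and Fn1 first. For the 31 tested podocyte and filter genes the summed signal was 25884 to 27286 in knockout and 27780 to 30543 in wild type. The brightest members weigh most in this sum, among them Tcf21 and Npnt, which did not pass. The mean log2 signal over the same members overlapped between genotypes (8.76 to 8.86 in knockout and 8.84 to 9.01 in wild type). No gene of these lists lay at the floor on all arrays. The part of these shifts in the members' changes was not tested.

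**Figure D4:**
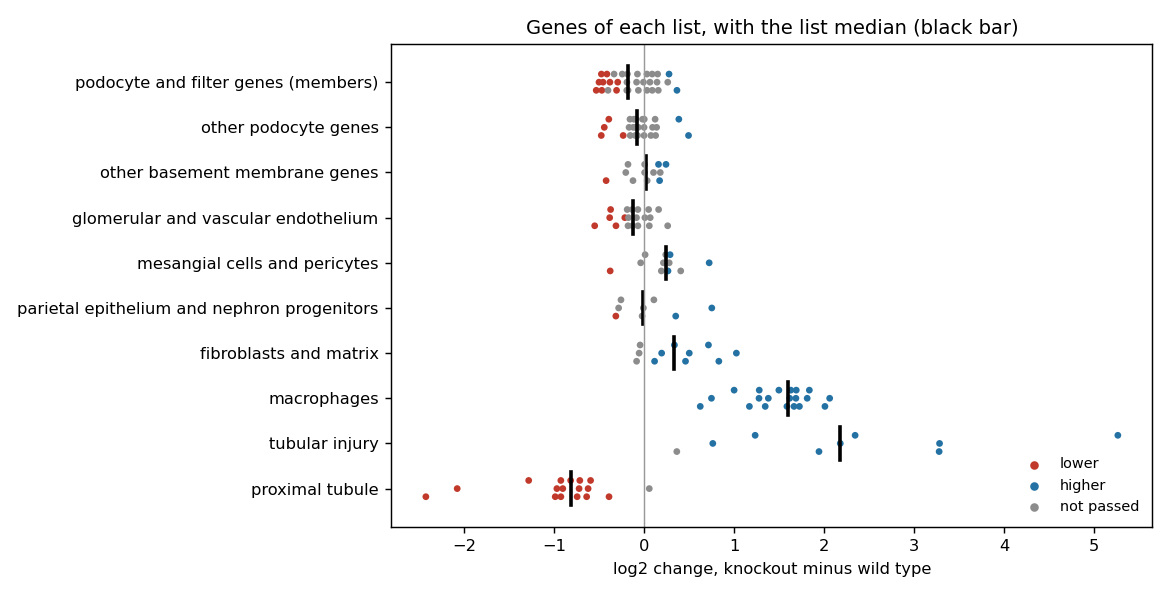
Log2 change, knockout minus wild type, of each tested gene (points, coloured by call) in the members and in 9 other lists, with the median of each list as a black bar. The members' median of -0.18 lies beside that of the endothelial list (-0.13), while macrophage (1.602) and proximal tubule (-0.81) genes moved further.

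No difference between sexes in the change passed adjustment. Of 12500 genes, 0 had a different change in males and females (limma interaction, adjusted p under 0.05), while 10.8% had an unadjusted p under 0.05. Among the 31 members 5 had such an unadjusted p: Thsd7a, Podxl, Dach1, Npnt and Itgb1. Thsd7a changed by -0.80 in males and -0.12 in females, and Npnt by -0.60 in males and -0.10 in females. Podxl went the other way, with -0.02 in males and -0.35 in females, as did Dach1, with 0.08 in males and -0.40 in females. The adjusted p was 0.455 for each of these 5. Nphs1 changed by -0.56 in males and -0.54 in females, and Clic5 by -0.49 in males and -0.40 in females. Knockout males were mostly on dimmer arrays and knockout females mostly on brighter ones, and sex and brightness were not separated.

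The members varied from array to array within a genotype. The mean log2 signal over the 31 members was 8.76 to 8.86 on knockout arrays and 8.84 to 9.01 on wild-type arrays, and these ranges overlapped through wild-type array 1-1. That array was the lowest of its genotype for 13 of 31 members, among them Plce1, Ddn, Clic5, Synpo and Podxl, and the highest for 2, Col4a3 and Col4a4. Among knockout arrays, 5-2 was lowest for 8 members and 2-3 for 6. All 11 called members had the same sign of change within the brighter and within the dimmer arrays, where 6 and 7 of them passed the threshold in fits of 8 arrays. Nphs1, Actn4 and Cdkn1c lie on chromosome 7, as does Aqp11, with 586, 636 and 768 protein-coding genes between.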

How the data were processed

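Kidney RNA of 16 pups, 1 array each, was measured on an Affymetrix mouse array of 45101 probe sets. The authors deposited a linear signal intensity per probe set, made with GCOS 1.3 per the submitters' processing notes; no source used here describes how arrays were scaled. Their trimmed means differed 2.12-fold. The intensities were therefore quantile normalized and converted to log2, with a floor at the 20th percentile (6.89, or 2.78 in log2), which understates changes of dim genes. Gene names came from the platform annotation, for probe sets with 1 gene. Testing used the brightest probe set, required to exceed the 40th percentile of the array on 7 or more arrays.

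Genotypes were compared with limma 3.58.1 in R 4.3.3 (variance trend, Benjamini-Hochberg over all genes), checked on simulated data. The simulated noise was independent between genes and arrays, so that check does not cover effects of brightness, sex or litter. The number of arrays limits the precision. Members and lists were chosen with earlier results of these data known. All members are named, and of each other list up to 4 called genes with the smallest p. Vegfa, Mertk and Tek are named besides these, after their values were seen. Alternatives were other normalizations, floors, filters, probe set choices, covariates and variance models, and subsets of arrays. Expression of Magi2 and of some genes of the other lists was not analysed here. Promoter sequences are RefSeq's.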

Additional observations from a re-analysis of the deposited data

Results flagged for a closer look

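Among 62 groups of values (31 members in each genotype), 7 held an array that lay apart from the rest of its genotype by Dixon's criterion, and chance alone would mark about 1 group in 20. In knockout, Plce1 was low on array 5-2 (7.04, next 7.23), Cdkn1c on array 1-2 (10.84, next 11.27), Col4a3 on array 2-3 (8.51, next 8.89), the brightest probe set of Col4a5 on array 3-4 (9.28, next 9.90) and Agrn on array 3-3 (10.63, next 10.81). In wild type, array 4-1 was high for Nphs1 (8.40, next 8.13) and for Foxd2 (6.51, next 6.34). Each of the 7 values comes from a different gene, and array 4-1 is the single array among them that was marked more than once.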

How the results depend on the processing

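Over 36 alternatives, the 11 called members kept the direction of their change. The counts of members called lower and higher were 7 to 9 and 1 to 2 with single arrays left out, where all genes gave 863 to 1055 lower and 995 to 1191 higher. With the deposited scaling, which leaves the 2.12-fold differences in brightness between arrays, 0 members were lower and 0 higher, with 154 and 284 of all genes; Nphs1 then changed by -0.51 (limma adjusted p = 0.165) and Clic5 by -0.44 (0.398). With the most variable probe set, 7 members were lower and 0 higher, with 642 and 764 of all genes. The mean of all probe sets gave 12 members lower and 2 higher, with 908 and 1024 of all genes. Without a filter 7 members were lower and 1 higher, with 951 and 1124 of all genes. In males alone 6 members were lower and 1 higher, with 599 and 818 of all genes. In females alone 4 members were lower and 0 higher, with 319 and 362 of all genes. Brighter arrays alone gave 6 members lower and 1 higher (680 and 653 of all genes), and dimmer arrays alone 7 lower and 0 higher (476 and 707). These subsets hold fewer arrays; otherwise the cause was not tested. The first sample number takes 5 values, as many as there were matings, but no label says that it marks a litter. The genotypes' deviations correlated at 0.0411, 0.130, -0.01, 0.156 and 0.320 within a number. Between different numbers the correlations ran from -0.30 to 0.255, which leaves a pairing unsettled. All arrays of numbers 4 and 5 were dimmer arrays, so number and brightness were not separated. With that number as a replicate block, 10 members were lower and 2 higher, with 1273 and 1382 of all genes, Npnt added (-0.36, limma adjusted p = 0.0293), also with sex in the fit (0.0368), and no other member's call changed.

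Cdkn1c passed in 18 of 36 alternatives, Thsd7a in 25, Cd2ap in 28 and Itga3 in 30, and the other called members in 32 to 35. Members called higher came to 1 without wild-type array 2-1 or 5-1, where Cd2ap was lost. Of the 20 members that did not pass, 6 passed in at least 1 alternative: Podxl in 3 (brighter arrays alone, 0.0235; brightness as a block, 0.0425; mean of all probe sets, 0.0365), Npnt in 9, Col4a5 with the mean of all probe sets (0.0292), Itgb1 in males alone (0.0439), Foxc1 without knockout array 2-4 (0.0409) and Lmx1b without knockout array 4-4 (0.0476). Changes of 10 members that did not pass turned sign, none past the threshold. Agrn did so with the deposited scaling (0.0022), sex as a term (0.0032), the replicate block (0.024), the block with sex (0.026), males alone (0.12) and some single arrays left out (range over all left-out arrays -0.046 to 0.020). Tcf21 turned with the mean of all probe sets (-0.0032), the most variable probe set (-0.039), females alone (-0.029), dimmer arrays alone (-0.037) and without wild-type array 1-1 (left-out arrays -0.012 to 0.061). Rhpn1 turned in females alone (-0.074), on brighter arrays alone (-0.10) and without 4 single arrays (left-out arrays -0.047 to 0.098). In males alone Wt1 (0.068), Foxc2 (0.072) and Dach1 (0.079) turned, in females alone Myo1e (-0.039) and Itgb1 (-0.0083), on brighter arrays alone Wt1 (0.034) and Lamb2 (-0.013), and with the mean of all probe sets Synpo (-0.12). The 35 other genes named from the lists kept their sign in all 1258 values and missed the threshold in 104, 18 of them with the deposited scaling.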
